A study of Mus musculus with 15 samples.

Results

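Epithelial loss of NEMO was compared with its floxed control in the colon of 11-week-old mice. Of the 15 arrays of the series, the 10 whose titles mark them as NEMO IEC-KO (mice KO-16a, KO-30a, KO-31a, KO-107a and KO-108a) or as wild type, here called Nemo FL (mice FL-18a, FL-22a, FL-28a, FL-29a and FL-55a), were used, with 5 mice per genotype and 1 Clariom S mouse array per mouse. Mice are named by their group and their number in the titles. The remaining 5 arrays come from NEMO IEC-KO mice that also carry a mutated Ripk1 and were not used in the comparison. NEMO IEC-KO mice carry wild-type Ripk1 (Ripk1 wt/wt) and a floxed Nemo gene that Villin-Cre removes in intestinal epithelial cells, whereas Nemo FL mice carry the floxed gene. All mice were littermates kept on chow, and each array received 100 ng of RNA from colon tissue, so that epithelium, immune cells, stroma and muscle were measured together.

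NEMO, encoded by the X-linked gene Ikbkg, is the regulatory subunit of the IκB kinase (IKK) complex. On stimulation by TNF, IL-1 or bacterial products, IKK phosphorylates IκB proteins and thereby releases NF-κB, and it also restrains the death-inducing activity of RIPK1. Mice lacking NEMO in the intestinal epithelium are known for epithelial cell death and chronic colitis. In bulk tissue, fewer cells of a type and less RNA per cell cannot be told apart, and this holds for every difference described here.

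Ikbkg, the targeted gene, was at 5.24, 5.15, 4.85, 5.30 and 5.28 in NEMO IEC-KO mice KO-16a, KO-30a, KO-31a, KO-107a and KO-108a, against 6.18, 6.55, 6.38, 6.50 and 6.28 in Nemo FL mice FL-18a, FL-22a, FL-28a, FL-29a and FL-55a. These and all later values are log2 array signals, listed in this order of mice. Every NEMO IEC-KO mouse was below every Nemo FL mouse, with a log2 change (NEMO IEC-KO minus Nemo FL) of -1.21 (SE 0.12, adjusted p = 4.71e-06 by limma). The position of its probes relative to the deleted exons was not known, so the value checks the labels only in part. Mouse FL-55a is titled wild type but carries the genotype label of the NEMO IEC-KO group. Its Ikbkg value of 6.28 lay within the range of the other Nemo FL mice, and it was kept with them by its title. It stood below them in some epithelial genes, with 10.09 for Hnf4a, a transcription factor of enterocytes, against 10.88 to 10.92 in the other 4, and 10.00 for the brush border gene Vil1, against 10.39 to 10.53.

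Transcripts of the Y chromosome averaged 7.58 and 7.41 over 3 genes in NEMO IEC-KO mice KO-31a and KO-107a and 8.53 in mouse FL-55a, and between 2.86 and 3.30 in the other 7 mice. Of 8 defining genes of colon epithelium, 7 were measured, and their mean was 10.1 to 10.4 in NEMO IEC-KO mice and 11.2 to 11.4 in Nemo FL mice. Among them Aqp8, Slc26a3 and Car1 (-1.26) were called lower, and Muc2, Vil1, Cdx2 (-0.40) and Krt20 (0.34) were not called, though Krt20 was called higher without mouse KO-16a or KO-108a or mouse FL-55a. Markers of stomach, squamous epithelium and pancreas had mean signals between 4.82 and 5.51 in all 10 mice. Single genes changed even so. The squamous marker Krt13 (0.56) was called higher, as was Serpinb5 (0.87). Both belong to a longer squamous list of 18 genes with 2 higher (11.1%, near the 11.8% over all genes) and 0 lower. In a longer list of 12 pancreatic acinar genes, 3 were lower and 0 higher. These were Cela1 (-1.45, Nemo FL mean 9.39), Clps (-1.29, Nemo FL mean 8.71) and Cpb1 (-0.44). Mouse FL-18a stood out with a mean of 6.97 over 4 small intestinal genes, against 5.29 to 5.58 in the other Nemo FL mice and 5.38 to 6.20 in NEMO IEC-KO mice. With the mean of the Y chromosome genes as a term in the model, 5386 genes were called, of which 4987 were among the 5106 given below, and without mouse FL-18a there were 4858.

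A gene is called higher or lower below where limma gave an adjusted p under 0.05 over all probe sets. Of 19527 genes, 2312 (11.8%) were higher and 2794 (14.3%) were lower in NEMO IEC-KO colon, which together makes 5106 genes (26.1%). The calls were mostly small. The median log2 change was 0.63 among the genes called higher and -0.62 among those called lower. More than 2-fold changes were about as frequent in both directions, with 521 genes higher (2.67%) and 519 lower (2.66%). Beyond 8-fold the balance shifted to 44 genes higher (0.225%) and 10 lower (0.0512%). All 5 NEMO IEC-KO values lay above all 5 Nemo FL values in 1607 genes (8.23%) and below them in 2048 genes (10.5%). Over all genes the median log2 change was 0.01.

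**Figure D1:**
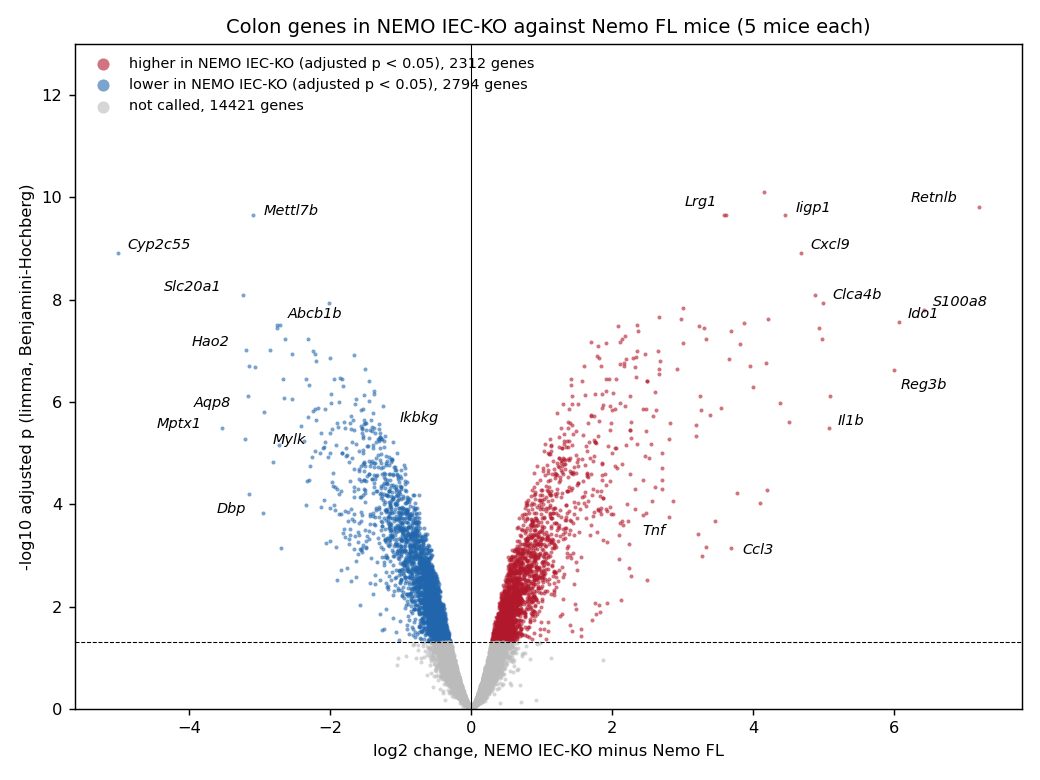
Log2 change of each gene (x axis, NEMO IEC-KO minus Nemo FL) against -log10 of its limma adjusted p (y axis), with genes called higher in red (2312), genes called lower in blue (2794) and the others in grey. The points farthest to the right are Retnlb at 7.21 and S100a8 at 6.43, and Cyp2c55 at -5.01 stands alone on the left.

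Epithelial defence genes were among the largest increases. Retnlb, which encodes the goblet cell protein RELM-beta, was at 9.08, 10.03, 9.85, 10.64 and 10.74 in NEMO IEC-KO mice, against 3.03, 2.55, 2.90, 3.20 and 2.59 in Nemo FL mice. Its log2 change of 7.21 (SE 0.25, adjusted p = 1.55e-10) was the largest of all genes. The Nemo FL values lay at the level of the Y chromosome genes in mice without Y transcripts (means over 3 genes 2.86 to 3.30, single genes 2.28 to 3.97). No fold is given for that reason, and the same holds for S100a8 below. The Nemo FL values of Fcgr4, Il1a, Il5ra, Mmp7 and Mmp10, given below, also lay within the range of the single genes. The C-type lectin Reg3b, which is antibacterial, was at 9.55, 11.87, 10.79, 12.05 and 10.58 in NEMO IEC-KO mice, against 6.07, 4.55, 4.14, 4.28 and 5.81 in Nemo FL mice. Its relative Reg3g was at 8.42, 10.41, 8.87, 10.87 and 9.49 in NEMO IEC-KO mice, against 5.41, 4.61, 3.98, 3.50 and 5.10 in Nemo FL mice. In both lectins the Nemo FL mice FL-18a and FL-55a had the highest control values, and no Nemo FL mouse reached the lowest NEMO IEC-KO mouse. Pla2g2a, a secreted bactericidal phospholipase, was at 10.88, 11.76, 11.73, 11.64 and 11.68 in NEMO IEC-KO mice, against 7.43, 6.67, 6.76, 6.69 and 5.71 in Nemo FL mice, a log2 change of 4.88 (SE 0.25, adjusted p = 8.00e-09).

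The antimicrobial and alarm genes did not move as a block. Of 30 measured, 12 were higher (40.0%) and 4 lower (13.3%, near the share over all genes), with a median log2 change of 0.19. The pentraxins Mptx1 and Mptx2 were among the largest decreases of the whole array. Mptx1 was at 8.34, 7.96, 7.65, 8.83 and 10.20 in NEMO IEC-KO mice, against 12.10, 12.17, 11.85, 12.26 and 12.28 in Nemo FL mice, a log2 change of -3.53 (SE 0.34, adjusted p = 3.22e-06). Mouse KO-108a was the least reduced, yet it remained below every Nemo FL mouse. Mptx2 followed with a log2 change of -3.21 (SE 0.33). These relatives are similar in sequence, and signal shared between their probes was not checked. The epithelial chemokine Ccl28, which draws IgA-producing cells, was lower by a small and uniform step, at 9.29 to 9.59 in NEMO IEC-KO mice and 9.79 to 10.15 in Nemo FL mice.

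**Figure D2:**
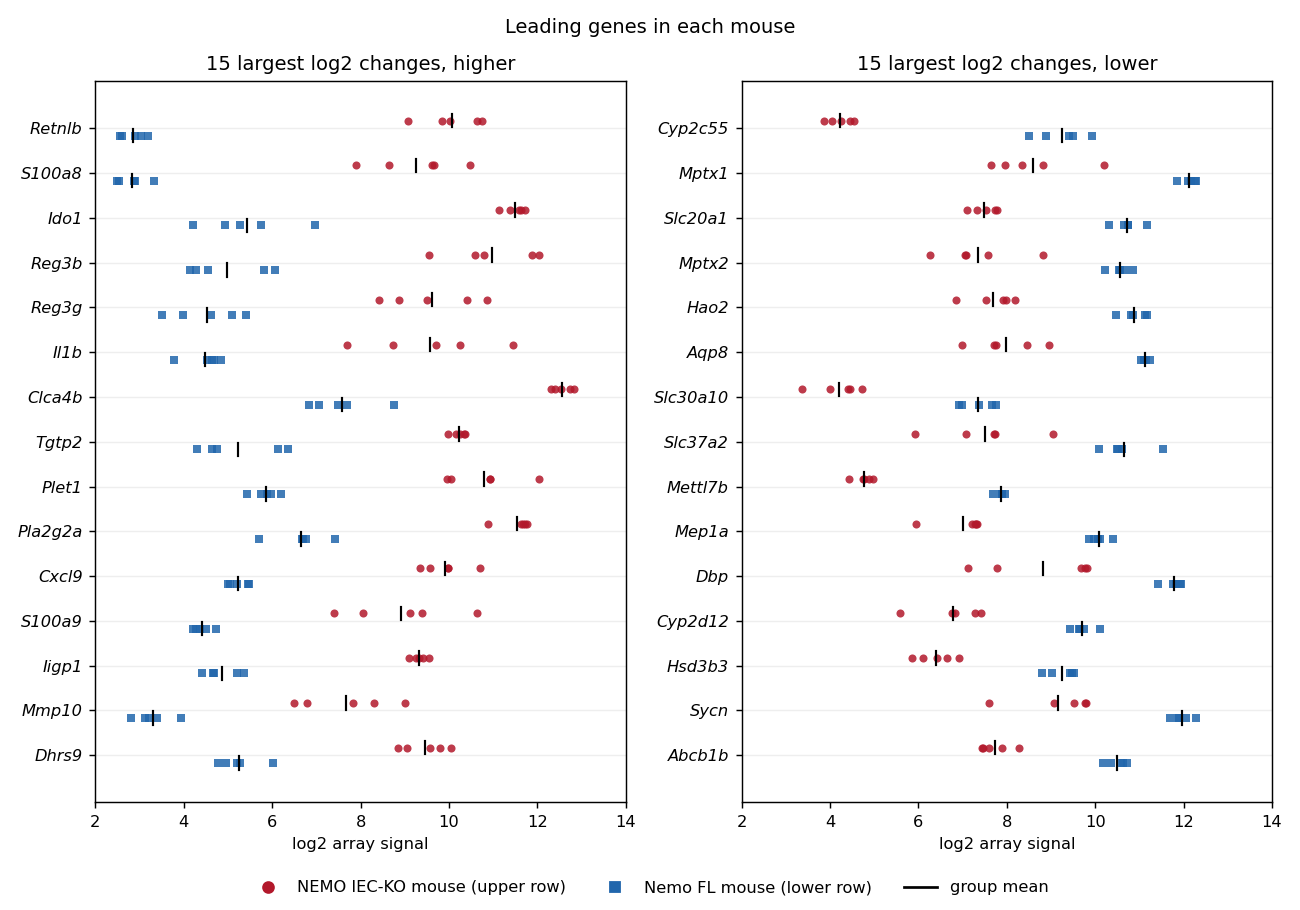
Log2 array signal (x axis) of the 15 genes with the largest log2 changes higher (left panel) and lower (right panel) among those called with groups apart, with 1 point per mouse, NEMO IEC-KO in the upper row of each gene and Nemo FL in the lower, and a bar at each group mean. In Retnlb the 5 NEMO IEC-KO mice lie between 9.08 and 10.74 and the 5 Nemo FL mice between 2.55 and 3.20, and S100a8, S100a9, Il1b and Mmp10 spread widely among NEMO IEC-KO mice.

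Neutrophil genes were high in every NEMO IEC-KO mouse but to very different degrees. S100a8, a subunit of calprotectin, was at 7.89, 8.64, 9.62, 9.65 and 10.48 in NEMO IEC-KO mice, against 2.91, 3.33, 2.87, 2.54 and 2.48 in Nemo FL mice, a log2 change of 6.43 (SE 0.36, adjusted p = 1.60e-08). The neutrophil-enriched Retnlg was at 5.55, 8.00, 8.55, 8.60 and 10.30 in NEMO IEC-KO mice, against 4.16, 4.37, 3.87, 3.89 and 4.23 in Nemo FL mice. Its NEMO IEC-KO values were lowest in mouse KO-16a and highest in mouse KO-108a, with an SE of 0.57 on a log2 change of 4.10. Of 25 neutrophil genes measured, 19 were higher, with a median log2 change of 1.80. Their mean over the list was 6.11, 6.77, 7.25, 7.37 and 7.98 in NEMO IEC-KO mice, against 5.14, 5.18, 5.11, 4.96 and 5.02 in Nemo FL mice. The Nemo FL mice thus lay close together and mouse KO-16a was nearest to them. The granule genes Mpo, Elane and Prtn3, which are made by precursors in the marrow, had log2 changes of 0.13, 0.11 and -0.03, and none was called.

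Genes of inflammatory monocytes and macrophages were higher in 26 of 32, with a median log2 change of 1.47. The Fc receptor Fcgr4 led them, at 5.52, 6.99, 7.42, 7.38 and 6.01 in NEMO IEC-KO mice, against 3.71, 3.47, 3.25, 3.19 and 3.75 in Nemo FL mice. The signalling chain Fcer1g was at 8.08, 9.04, 9.33, 9.51 and 9.11 in NEMO IEC-KO mice, against 7.02, 6.59, 7.14, 6.43 and 6.09 in Nemo FL mice. Ly6c2, which marks monocytes recently arrived from blood, had a log2 change of 2.49 (SE 0.20) and the chitinase-like gene Chil3 of 2.44 (SE 0.36). The genes of resident macrophages split instead. The haemoglobin scavenger receptor Cd163 was lower, at 5.15, 5.63, 5.71, 5.44 and 4.84 in NEMO IEC-KO mice, against 6.52, 6.68, 6.93, 7.09 and 7.16 in Nemo FL mice. The receptor Mertk, which clears dying cells, had a log2 change of -1.22 (SE 0.19, adjusted p = 3.02e-04). The complement genes C1qa, C1qb and C1qc, made by the same cells, were called higher, C1qb at 7.70, 8.77, 8.68, 8.78 and 7.73 in NEMO IEC-KO mice and 7.39, 7.34, 7.65, 7.01 and 6.72 in Nemo FL mice. In total 5 of 21 resident macrophage genes were higher and 8 lower. The pan-macrophage gene Adgre1 had a log2 change of 0.22 and was not called.

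Interleukin-1 and several chemokines varied widely among NEMO IEC-KO mice. Il1b was at 7.69, 8.74, 9.72, 10.24 and 11.44 in NEMO IEC-KO mice, against 4.83, 4.51, 4.68, 3.77 and 4.64 in Nemo FL mice. Il1a was at 4.59, 5.47, 6.33, 8.18 and 8.99 in NEMO IEC-KO mice, against 3.25, 3.64, 3.61, 3.49 and 3.19 in Nemo FL mice. Ccl3 was at 5.83, 7.15, 7.50, 9.46 and 10.87 in NEMO IEC-KO mice, against 4.57, 4.38, 4.58, 4.39 and 4.41 in Nemo FL mice. In all of these, mouse KO-16a was lowest and mouse KO-108a highest among NEMO IEC-KO mice, and the spread of the NEMO IEC-KO group was wide (SD 1.84 for Il1a and 2.00 for Ccl3) beside that of the Nemo FL group (SD 0.20 and 0.10). Cxcl2, a ligand of the neutrophil receptor CXCR2, was at 6.02, 7.16, 7.44, 9.15 and 10.51 in NEMO IEC-KO mice, against 4.95, 4.88, 4.50, 4.53 and 4.75 in Nemo FL mice. A narrow spread was found in the related Cxcl5, at 7.33, 6.89, 7.18, 7.69 and 7.84 in NEMO IEC-KO mice and 4.44, 4.28, 3.90, 3.66 and 4.50 in Nemo FL mice, a log2 change of 3.23 (SE 0.20, adjusted p = 3.33e-08).

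Of 33 chemokines, 19 were higher, with a median log2 change of 0.82. The T cell attractant Cxcl9, which interferon gamma induces, was the largest of them and was at 9.33, 9.57, 9.99, 9.97 and 10.70 in NEMO IEC-KO mice, against 5.47, 5.20, 5.44, 4.99 and 5.04 in Nemo FL mice. The changes of Ccl5 and Cxcl1 were 2.56 (SE 0.35) and 1.25 (SE 0.25). Most other cytokines were not called. Among 53, 17 were higher and 3 lower, with a median log2 change of 0.22. Tnf was at 5.88, 6.43, 6.63, 7.59 and 8.50 in NEMO IEC-KO mice, against 4.80, 4.44, 4.78, 4.51 and 4.11 in Nemo FL mice, and the epithelial IL-1 relative Il1f9 (Il36g) had a log2 change of 2.27 (SE 0.48). Il17a, Il22 and Il23a had log2 changes of 0.27, 0.45 and -0.30 and were not called. Il15, which sustains intraepithelial lymphocytes, was lower, at 5.60, 6.43, 5.59, 6.15 and 6.20 in NEMO IEC-KO mice, against 7.02, 7.28, 7.44, 7.99 and 7.80 in Nemo FL mice (log2 change -1.51, SE 0.20). Receptors were higher in 19 of 38, led by the IL-1 decoy receptor Il1r2 (2.24, SE 0.45) and the chemokine receptors Ccr1 (1.85, SE 0.26) and Ccr2 (1.68, SE 0.28).

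Lymphocyte genes were higher by smaller amounts. Helper and regulatory T cell genes were higher in 17 of 23, with a median log2 change of 0.68. The T cell receptor chain Cd3e was at 6.64, 7.52, 7.26, 7.00 and 7.21 in NEMO IEC-KO mice, against 6.06, 5.57, 5.73, 4.55 and 4.48 in Nemo FL mice, and the co-stimulator Icos was at 6.69 to 7.67 in NEMO IEC-KO mice and 4.90 to 5.46 in Nemo FL mice. Of 25 genes of cytotoxic T and NK cells, 12 were higher. The granule protease Gzma was at 5.19, 6.46, 7.53, 7.30 and 6.43 in NEMO IEC-KO mice, against 4.59, 3.95, 3.70, 3.72 and 3.93 in Nemo FL mice, while Prf1, which encodes perforin, had a log2 change of 0.34 and was not called. Ifng was higher with overlap, at 4.23, 4.80, 5.72, 5.81 and 6.84 in NEMO IEC-KO mice and 4.33, 4.47, 4.25, 4.25 and 3.82 in Nemo FL mice (adjusted p = 0.0152), since mouse KO-16a lay within the Nemo FL range. Without the 3 mice that carry Y transcripts Ifng was not called.

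Plasma cell genes were higher in 8 of 15, among them the IgA joining chain Jchain, at 11.47, 11.94, 11.96, 12.11 and 11.94 in NEMO IEC-KO mice and 10.80, 10.69, 10.78, 10.58 and 10.30 in Nemo FL mice, and the regulator of plasma cell differentiation Prdm1 (2.06, SE 0.22). Mature B cell genes gave no such pattern, with 3 of 22 higher, near the share over all genes, and this count ran from 0 to 5 when single mice were left out. It was 0 when mouse KO-31a or mouse FL-29a was omitted, 1 when mouse KO-30a was omitted and 5 when mouse FL-28a was omitted. Mast cell and eosinophil genes were higher in 8 of 20 and in 5 without mouse KO-31a. The eosinophil receptor gene Il5ra was at 5.70, 4.78, 5.68, 4.95 and 4.12 in NEMO IEC-KO mice, against 3.19, 3.18, 3.36, 2.94 and 3.32 in Nemo FL mice. The histamine-forming enzyme Hdc was at 6.27, 7.24, 6.82, 7.27 and 8.89 in NEMO IEC-KO mice, against 5.23, 5.25, 4.64, 5.17 and 5.07 in Nemo FL mice. Kit, shared by mast cells and the pacemaker cells of the muscle layer, was lower (-1.22, SE 0.16). Dendritic cell genes were called higher in 5 of 19, with a median log2 change of 0.17.

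Interferon-responsive genes were higher almost throughout. Of 45 measured, 39 were higher, with a median log2 change of 1.30. Ido1, which degrades tryptophan, was at 11.13, 11.38, 11.58, 11.63 and 11.73 in NEMO IEC-KO mice, against 6.97, 5.28, 5.74, 4.92 and 4.20 in Nemo FL mice, a log2 change of 6.07 (SE 0.36, adjusted p = 2.71e-08). The NEMO IEC-KO values lay close together, and the Nemo FL values spread widely with mouse FL-18a highest. The immunity-related GTPases Iigp1, Tgtp2 and Igtp, which act on vacuoles of intracellular pathogens, came next. Iigp1 was at 9.09, 9.31, 9.26, 9.40 and 9.55 in NEMO IEC-KO mice, against 5.37, 4.69, 5.21, 4.40 and 4.65 in Nemo FL mice. Tgtp2 was at 9.98, 10.25, 10.33, 10.16 and 10.36 in NEMO IEC-KO mice, against 6.36, 4.30, 6.14, 4.63 and 4.75 in Nemo FL mice. Igtp was at 8.90, 9.30, 9.31, 9.39 and 9.58 in NEMO IEC-KO mice, against 6.09, 5.27, 6.41, 5.07 and 5.21 in Nemo FL mice. Groups were far apart in each, and the near-identical gene Tgtp1 may share signal with Tgtp2, which was not checked. The antiviral genes Mx1 (0.19), Mx2 (0.15), Ifih1 (0.17) and Ddx58 (0.29) were not called, while Ifit1 (1.41, SE 0.21) and Isg15 (1.49, SE 0.29) were called higher.

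Genes of antigen presentation were higher as well. All 18 genes measured of MHC class I presentation were higher, with a median log2 change of 1.01. The largest changes were those of the immunoproteasome subunits Psmb8 (2.58, SE 0.24) and Psmb9 (2.48, SE 0.22) and of the peptide transporter Tap1, which was at 10.56, 10.49, 10.32, 10.33 and 10.58 in NEMO IEC-KO mice, against 8.90, 7.65, 8.37, 7.84 and 7.13 in Nemo FL mice. Of 10 class II genes, 7 were higher, with a median log2 change of 1.88. H2-DMb1, which loads peptides onto class II molecules, was at 11.31, 11.60, 11.51, 11.58 and 11.18 in NEMO IEC-KO mice, against 10.67, 8.27, 8.85, 7.51 and 7.85 in Nemo FL mice. H2-Ab1 was at 11.38, 11.78, 11.74, 11.80 and 11.44 in NEMO IEC-KO mice, against 11.05, 9.49, 9.51, 8.87 and 9.14 in Nemo FL mice. Mouse FL-18a came close to the NEMO IEC-KO mice in both genes and stood well above the other Nemo FL mice. Its mean over the class II list was 8.95, against 9.32 to 9.71 in NEMO IEC-KO mice and 7.23 to 8.14 in the other Nemo FL mice.

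Sequence elements in the promoters of these genes were counted as a description. The windows run from 250 bases before to 50 bases after the start of a gene in the RefSeq annotation of GRCm38.p6 and were available for 15683 measured genes. The interferon-stimulated response element, searched on both strands as GAAANNGAA, was in 8.07% of all these windows, 12.3% of those of genes called higher and 6.1% of those of genes called lower. It was in 23 of 33 windows of the interferon list (69.7%). The GAS element, TTCNNNGAA, was in 7.9% of all windows, 9.72% of those of higher genes, 5.69% of those of lower genes and 11 of 33 of the interferon list (33.3%). The 2 patterns share letters and can overlap, and a match is no evidence of binding. An NF-κB pattern, GGGANTTCC, was in 1.83% of all windows, 2.23% of those of higher genes and 1.67% of those of lower genes. It was in 3 of 24 windows of chemokines, but in 0 of 37 of other cytokines and 0 of 33 of the interferon list. For MHC class I and class II presentation it was in 1 of 17 and 1 of 8 windows. The windows of Igtp (chr11:58199306-58199605, plus strand), Tgtp2 (chr11:49064163-49064462, minus strand) and Cxcl9 (chr5:92328030-92328329, minus strand) are shown because these genes are among the largest increases and because Igtp and Tgtp2 carry both elements. Capitals mark the GAS and interferon-stimulated elements in Igtp and Tgtp2, and the interferon-stimulated element and the NF-κB pattern in Cxcl9.
Igtp: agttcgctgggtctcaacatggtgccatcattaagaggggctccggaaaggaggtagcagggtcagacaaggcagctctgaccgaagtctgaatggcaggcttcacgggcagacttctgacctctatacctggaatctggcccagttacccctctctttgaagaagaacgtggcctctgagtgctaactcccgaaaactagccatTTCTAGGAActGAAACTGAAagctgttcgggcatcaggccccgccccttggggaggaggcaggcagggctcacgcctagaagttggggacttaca
Tgtp2: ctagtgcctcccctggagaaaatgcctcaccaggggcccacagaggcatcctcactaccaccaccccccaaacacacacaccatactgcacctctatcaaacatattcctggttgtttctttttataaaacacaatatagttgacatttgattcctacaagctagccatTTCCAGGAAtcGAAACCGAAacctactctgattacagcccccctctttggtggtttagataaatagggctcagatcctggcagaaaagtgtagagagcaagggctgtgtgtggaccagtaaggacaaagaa
Cxcl9: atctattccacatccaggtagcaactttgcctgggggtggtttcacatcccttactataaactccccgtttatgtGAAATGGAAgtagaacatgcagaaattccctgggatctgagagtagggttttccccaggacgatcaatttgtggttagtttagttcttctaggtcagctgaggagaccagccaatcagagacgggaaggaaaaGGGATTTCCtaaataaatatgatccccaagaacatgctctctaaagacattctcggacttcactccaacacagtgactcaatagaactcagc

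In Igtp and Tgtp2, 2 bases separate the GAS element from the interferon-stimulated element. Igtp and Tgtp2 had log2 changes of 3.69 and 4.98, Cxcl9 of 4.69.

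Genes of the pathway that NEMO serves changed in part. Of 37 genes of TNF receptor and IKK signalling, 13 were higher and 3, Ikbkg included, lower. Ikbkb (0.04), the partner kinase of NEMO, Map3k7 (-0.03), which activates IKK, and the ubiquitin ligases Birc2 (-0.02) and Birc3 (-0.09) were not called. The receptor Tnfrsf1b was at 8.56, 8.94, 8.60, 8.79 and 9.20 in NEMO IEC-KO mice, against 7.35, 7.42, 7.37, 7.21 and 7.17 in Nemo FL mice, and the RNA-degrading feedback inhibitor Zc3h12a had a log2 change of 1.22 (SE 0.16). The NF-κB inhibitors Nfkbia (0.23) and Tnfaip3 (0.37), both classic targets of NF-κB, were not called.

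Among 44 cell death genes, 17 were higher (38.6%) and 8 lower (18.2%, near the 14.3% over all genes). The number lower was 5 without mouse KO-31a or KO-107a. The largest increases included Ripk3 and Zbp1, which act in necroptosis, and the anti-apoptotic Bcl2a1d (2.12, SE 0.18) and Bcl2a1b (2.00, SE 0.18), near-identical copies that may share signal, which was not checked. Ripk3, the kinase that RIPK1 and ZBP1 engage, was at 9.55, 9.53, 9.24, 9.61 and 9.64 in NEMO IEC-KO mice, against 7.71, 7.10, 7.34, 7.02 and 6.66 in Nemo FL mice, a log2 change of 2.35 (SE 0.17, adjusted p = 1.32e-07). Zbp1, a nucleic acid sensor, was at 7.87, 8.59, 8.53, 8.49 and 8.30 in NEMO IEC-KO mice, against 6.98, 6.25, 6.31, 5.47 and 5.77 in Nemo FL mice, and Mlkl, the membrane-rupturing executor, had a log2 change of 1.37 (SE 0.13). NEMO IEC-KO mice varied by less than 1 unit in Ripk3 and in Zbp1. Zbp1 also belongs to the interferon list. No named probe set was found for Ripk1. The apoptosis genes Casp8 (0.61), Fas (0.62) and Bak1 (1.02) were called higher, while Fadd (0.12), Cflar (0.00) and Bcl2l1 (0.00) were not. Gasdermins, which form pores in dying cells, differed in direction. Gsdmd was higher (0.64, SE 0.12) and the epithelial Gsdmc3 was lower, at 10.00 to 10.56 in NEMO IEC-KO mice and 11.20 to 11.72 in Nemo FL mice.

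Complement and acute phase genes were higher in 17 of 25. Lrg1, an acute phase glycoprotein, was at 9.45, 9.74, 9.25, 9.63 and 9.39 in NEMO IEC-KO mice, against 5.61, 6.15, 5.70, 5.94 and 6.11 in Nemo FL mice. The haemoglobin-binding Hp had a log2 change of 4.18 (SE 0.30) and the protease inhibitor Serpina3n of 3.25 (SE 0.27). Sensors of microbes were higher in 13 of 20, with the C-type lectin receptor Clec4e (2.86, SE 0.39) leading and the DNA-sensing adaptor Sting1 at 8.30 to 8.99 in NEMO IEC-KO mice and 6.48 to 6.82 in Nemo FL mice. The flagellin receptor Tlr5 was the only sensor of the list called lower, at 5.42, 5.76, 5.70, 5.55 and 5.27 in NEMO IEC-KO mice, against 6.43, 6.26, 6.84, 6.33 and 6.15 in Nemo FL mice.

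**Figure D3:**
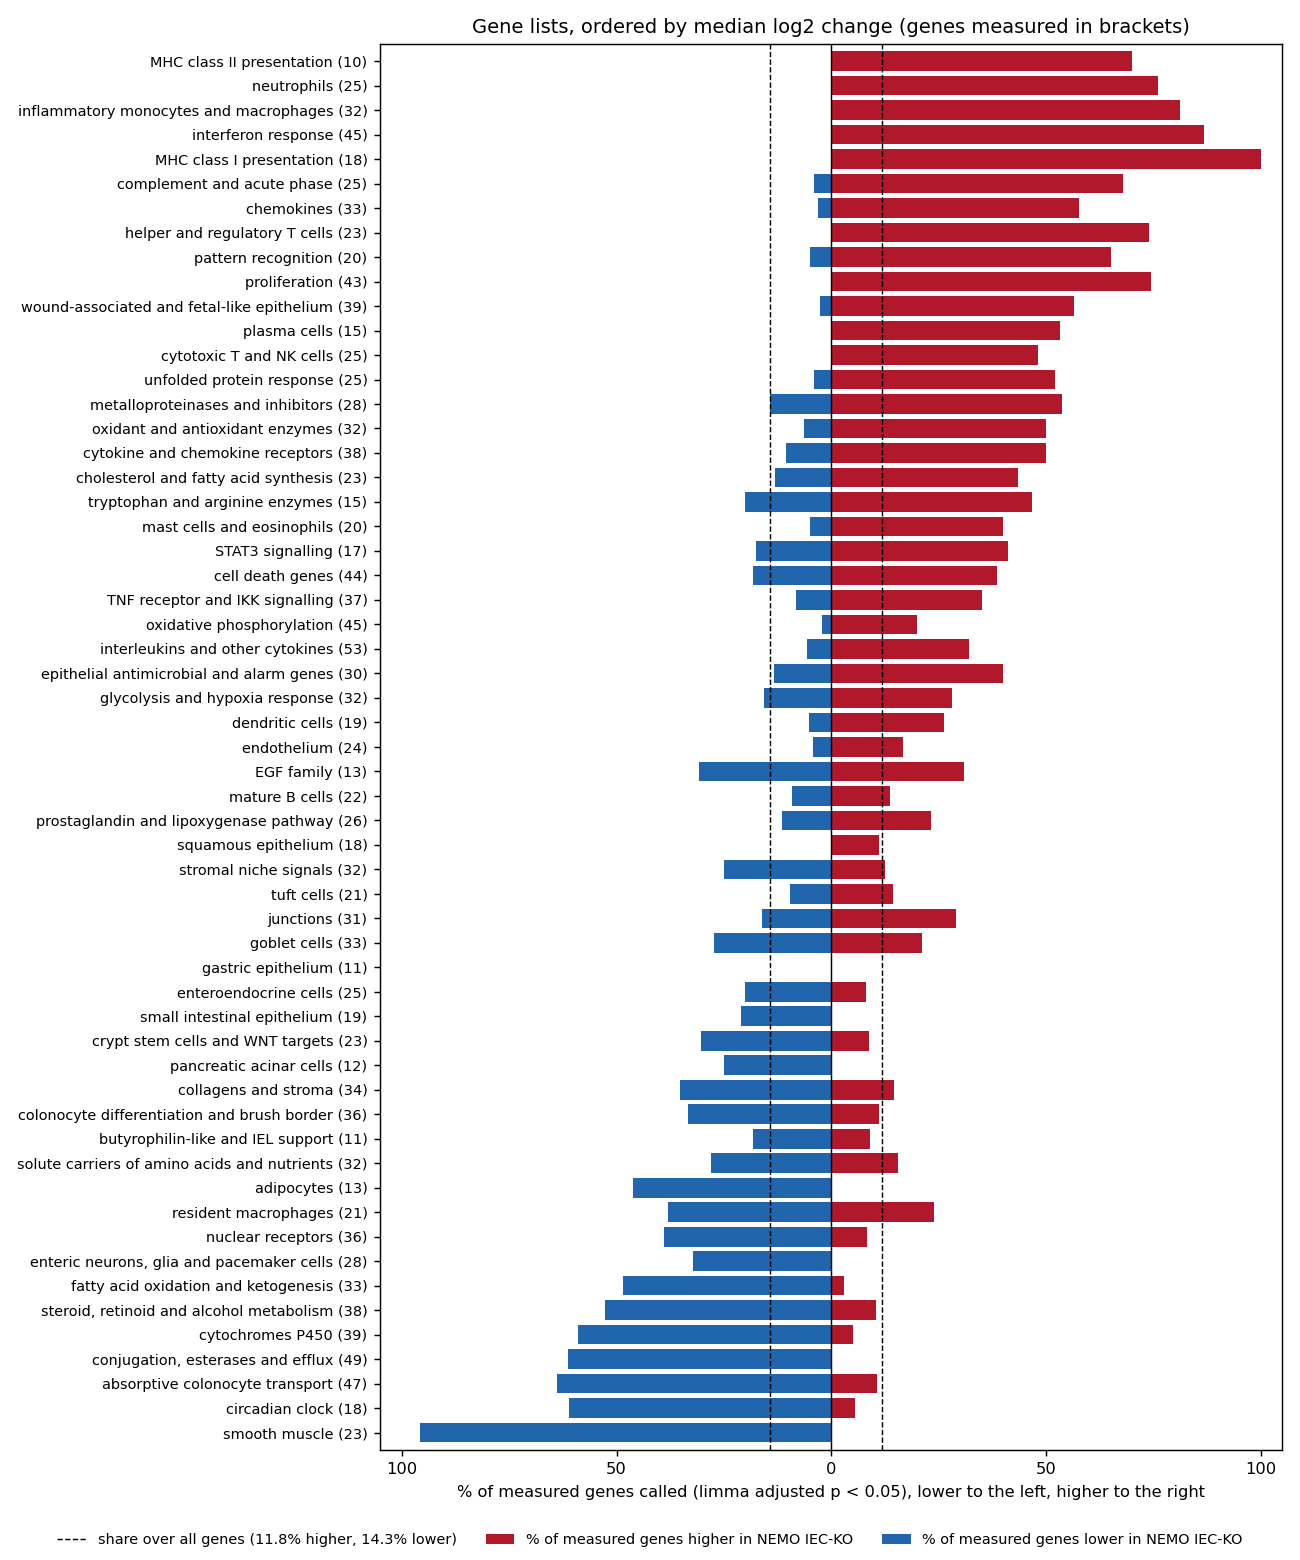
Percentage of the measured genes of each list with 10 or more of them (number in brackets) called higher (red, to the right) or lower (blue, to the left) in NEMO IEC-KO colon, ordered by the median log2 change of the list, with dashed lines at the shares over all genes (11.8% and 14.3%). Immune, interferon and proliferation lists lie at the top, smooth muscle, clock and colonocyte transport and detoxification lists at the bottom.

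Transport genes of the absorptive colonocyte were mostly lower. Of 47 transport genes, 30 were lower and 5 higher (10.6%, near the share over all genes), with a median log2 change of -0.84. Slc20a1, a phosphate importer, was at 7.52, 7.74, 7.09, 7.33 and 7.78 in NEMO IEC-KO mice, against 10.31, 10.75, 10.73, 11.18 and 10.64 in Nemo FL mice. Aqp8, the water channel of the colonic surface, was at 7.76, 7.71, 8.45, 8.96 and 6.99 in NEMO IEC-KO mice, against 11.04, 11.25, 11.15, 11.11 and 11.11 in Nemo FL mice, and the Nemo FL values lay close together. The manganese exporter Slc30a10 was at 4.72, 4.46, 3.37, 4.41 and 3.99 in NEMO IEC-KO mice, against 6.98, 7.67, 7.76, 7.37 and 6.93 in Nemo FL mice. All 3 had NEMO IEC-KO groups wholly below the Nemo FL group, with log2 changes of -3.23, -3.16 and -3.15 (SE 0.17, 0.26 and 0.23). The sodium-hydrogen exchanger Slc9a3 (-2.72) and the chloride-bicarbonate exchanger Slc26a3 (-2.65) were lower too, and the epithelial sodium channel subunits were lower for Scnn1a (-0.81) and not called for Scnn1b (-0.44) and Scnn1g (-0.54).

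Against this trend, Clca4b, a relative of the calcium-activated chloride channel regulators, was at 12.41, 12.73, 12.53, 12.82 and 12.31 in NEMO IEC-KO mice, against 8.76, 7.69, 7.06, 6.84 and 7.49 in Nemo FL mice, a log2 change of 4.99 (SE 0.27, adjusted p = 1.14e-08). Its family member Clca1, a goblet cell product, moved the other way, at 10.47, 9.73, 9.81, 10.57 and 11.73 in NEMO IEC-KO mice and 12.32, 12.46, 12.41, 12.46 and 12.29 in Nemo FL mice, and Clca4a was higher by a smaller step (1.10, SE 0.19). The structural genes of the epithelium changed little. Epcam (0.05), Vil1 (-0.08), Krt8 (-0.12) and Cdh1 (0.01) were not called. Of 36 genes of differentiation and brush border, 12 were lower and 4 higher (11.1%, near the share over all genes). The number higher was 2 without mouse KO-30a or KO-107a or mouse FL-29a. The protease meprin alpha, Mep1a, was the exception in size, at 7.22, 7.27, 7.32, 7.31 and 5.94 in NEMO IEC-KO mice, against 9.96, 10.07, 10.12, 10.41 and 9.85 in Nemo FL mice.

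Enzymes that handle foreign compounds were lower in large numbers. Of 39 cytochromes P450, 23 were lower and 2 higher, with a median log2 change of -0.61. Cyp2c55, a colonic enzyme of fatty acid and drug oxidation, had the largest decrease of all genes. It was at 4.25, 4.46, 3.86, 4.54 and 4.05 in NEMO IEC-KO mice, against 8.50, 9.49, 9.41, 8.88 and 9.92 in Nemo FL mice, a log2 change of -5.01 (SE 0.22, adjusted p = 1.21e-09), or 32.2-fold lower. Mouse KO-31a lay within the range of single Y chromosome genes in mice without Y transcripts (2.28 to 3.97), so the change may be understated. Cyp2d12 was at 6.76, 7.43, 6.83, 7.28 and 5.59 in NEMO IEC-KO mice, against 9.42, 9.63, 9.65, 10.10 and 9.74 in Nemo FL mice, and the higher members were Cyp4f40 (0.64) and the cholesterol synthesis enzyme Cyp51 (0.63). Of 49 genes of conjugation, ester cleavage and efflux, 30 were lower, with a median log2 change of -0.80. The drug efflux pumps Abcb1a and Abcb1b led them. Abcb1a was at 8.65, 9.17, 8.98, 8.70 and 8.19 in NEMO IEC-KO mice, against 11.16, 11.55, 11.43, 11.75 and 11.56 in Nemo FL mice. Abcb1b was at 7.46, 8.27, 7.89, 7.61 and 7.44 in NEMO IEC-KO mice, against 10.17, 10.62, 10.37, 10.73 and 10.59 in Nemo FL mice. The sulfotransferase Sult1a1 (-2.17, SE 0.19) and the deacetylase Aadac (-2.05, SE 0.35) were also lower. Mettl7b, a methyltransferase outside these lists, had the smallest SE of the 15 largest decreases (0.12), at 4.43, 4.97, 4.75, 4.76 and 4.88 in NEMO IEC-KO mice and 7.88, 7.90, 7.87, 7.70 and 7.95 in Nemo FL mice.

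In steroid, retinoid and alcohol metabolism 20 of 38 genes were lower and 4 higher (10.5%, near the share over all genes). Hao2, a peroxisomal hydroxyacid oxidase, was at 7.98, 7.53, 7.92, 8.17 and 6.84 in NEMO IEC-KO mice, against 10.47, 10.80, 10.85, 11.18 and 11.13 in Nemo FL mice. Hsd3b3, a hydroxysteroid dehydrogenase, was at 6.41, 5.86, 6.10, 6.66 and 6.91 in NEMO IEC-KO mice, against 9.01, 9.43, 9.46, 9.52 and 8.80 in Nemo FL mice. The groups were clearly apart in both. The opposite case was Dhrs9, a retinol dehydrogenase, at 8.84, 10.04, 9.05, 9.57 and 9.79 in NEMO IEC-KO mice and 6.02, 5.26, 5.19, 4.96 and 4.77 in Nemo FL mice, a log2 change of 4.22 (SE 0.24, adjusted p = 2.40e-08). Nuclear receptors were lower in 14 of 36, among them the mineralocorticoid receptor Nr3c2, at 9.33, 9.72, 9.07, 8.97 and 9.27 in NEMO IEC-KO mice and 10.77, 10.77, 10.98, 11.02 and 11.00 in Nemo FL mice, the vitamin D receptor Vdr (-1.07, SE 0.14), and, by smaller steps, Hnf4a (-0.65, SE 0.16) and Hnf4g (-0.46, SE 0.12), which set the programme of the enterocyte.

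An HNF4 pattern, CAAAGTCCA, searched on both strands, was in 0.478% of all promoter windows, in 0.706% of those of genes called higher and in 0.362% of those of genes called lower. It was in 4 of 30 windows of the cytochromes P450 (13.3%), but in 0 of 33 of the absorptive transport genes. It was also in 0 of 40 windows of the genes of conjugation, ester cleavage and efflux. Among genes called and changed more than 2-fold, it was in 1.28% of the windows of those higher and 0.485% of those lower. The pattern was thus not more frequent among the decreased genes. The window of Hsd3b3 (chr3:98763079-98763378, minus strand, RefSeq annotation of GRCm38.p6) is shown as that of a strongly decreased gene with the pattern, whose reverse complement is in capitals.
Hsd3b3: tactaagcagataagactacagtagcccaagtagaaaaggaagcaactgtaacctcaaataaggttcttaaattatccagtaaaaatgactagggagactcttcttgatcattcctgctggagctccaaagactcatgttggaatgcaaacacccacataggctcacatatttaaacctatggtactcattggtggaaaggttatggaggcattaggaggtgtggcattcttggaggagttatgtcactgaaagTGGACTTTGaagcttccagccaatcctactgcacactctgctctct

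Genes of energy metabolism are given list by list. Of 33 genes of fatty acid oxidation and ketogenesis, 16 were lower. Ppargc1a, a coactivator of mitochondrial genes, was at 8.85, 9.30, 8.88, 8.42 and 8.37 in NEMO IEC-KO mice, against 10.15, 10.42, 10.41, 10.66 and 10.13 in Nemo FL mice, and the rate-limiting importer Cpt1a had a log2 change of -0.67 (SE 0.13). Respiratory chain genes were higher in 9 of 45, with a median log2 change of 0.23. This count was 16 without mouse KO-108a and 3 to 5 without mouse KO-31a or KO-107a or mouse FL-22a, FL-28a or FL-29a. The cholesterol synthesis enzyme Fdps was at 7.84 to 8.19 in NEMO IEC-KO mice and 6.61 to 6.89 in Nemo FL mice. Of 23 genes of sterol and fatty acid synthesis, 10 were higher and 3 lower (13.0%, near the share over all genes). Among 32 genes of glycolysis and hypoxia, 9 were higher, led by the lactate exporter Slc16a3 (1.31, SE 0.15), and 5 lower, a number near the share over all genes that was 3 without mouse KO-16a, KO-31a or KO-108a or mouse FL-22a, FL-28a or FL-29a.

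Goblet cell genes went both ways, with 7 of 33 higher, 9 lower and a median log2 change of -0.03. The mucin gene Muc2 (-0.11) and the trefoil factor Tff3 (-0.02) were not called, whereas Klk1, a kallikrein, was at 11.25, 11.47, 11.48, 11.40 and 11.69 in NEMO IEC-KO mice, against 12.71, 12.97, 12.91, 13.03 and 12.88 in Nemo FL mice. The glycosyltransferase Galnt3 was higher, at 9.67, 9.63, 9.51, 9.77 and 9.92 in NEMO IEC-KO mice and 8.52, 8.24, 8.06, 8.19 and 8.30 in Nemo FL mice. In enteroendocrine cells, 2 of 25 genes were higher and 5 lower, neither far from the shares over all genes, and the number higher was 1 without mouse KO-16a, KO-31a or KO-107a or mouse FL-28a, FL-29a or FL-55a. The tachykinin precursor Tac1, also a neuronal gene, was at 10.00, 10.04, 9.89, 10.00 and 9.40 in NEMO IEC-KO mice, against 7.80, 7.53, 7.69, 7.59 and 8.19 in Nemo FL mice, and the prohormone processing gene Cpe was lower (-1.84, SE 0.27). Tuft cell genes were called in 3 (higher) and 2 (lower) of 21, near the shares over all genes.

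Proliferation genes were higher in 32 of 43, with a median log2 change of 0.64. The mitotic kinase Plk1 was at 9.89, 9.06, 9.29, 9.33 and 9.21 in NEMO IEC-KO mice, against 8.81, 8.24, 8.18, 8.28 and 7.71 in Nemo FL mice. The ribonucleotide reductase subunit Rrm2 was at 9.04, 8.13, 8.55, 8.64 and 8.75 in NEMO IEC-KO mice, against 8.01, 7.14, 7.28, 7.28 and 7.05 in Nemo FL mice. Here mouse KO-16a, which had the lowest mean over the neutrophil genes, had the highest value of its group, and mouse FL-18a the highest of the controls. The widely used marker Mki67 (0.21) was not called. Stem cell and WNT target genes were lower in 7 of 23 (30.4%), including the R-spondin receptor Lgr4 (-0.63, SE 0.11) and the WNT target Axin2 (-0.46, SE 0.12). In the same list 2 were higher (8.7%, near the share over all genes), or 4 without mouse KO-108a and 5 without mouse FL-18a.

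Genes described in wounded or fetal-like epithelium were higher in 22 of 39 and lower in 1. Plaur, the urokinase receptor, was at 7.73, 7.65, 7.98, 8.49 and 9.43 in NEMO IEC-KO mice, against 5.86, 5.66, 6.00, 5.56 and 5.41 in Nemo FL mice. Ly6d was at 8.74, 8.52, 8.97, 8.77 and 8.59 in NEMO IEC-KO mice, against 6.71, 6.74, 6.71, 6.28 and 6.69 in Nemo FL mice. Plet1, a surface protein of progenitor epithelium that stands outside the list, was at 10.93, 10.93, 9.96, 10.06 and 12.04 in NEMO IEC-KO mice and 6.21, 5.89, 5.75, 5.43 and 5.98 in Nemo FL mice. The EGF family was split, with 4 of 13 genes higher and 4 lower (30.8% each, against 11.8% and 14.3% over all genes). Those higher included the EGF receptor ligands Hbegf (0.97, SE 0.13) and Ereg (0.77, SE 0.16) and the ERBB3 and ERBB4 ligand Nrg1 (1.23, SE 0.15). Egf was among those lower (-0.61, SE 0.17). The junction gene Cldn1 was lower, at 4.14 to 4.71 in NEMO IEC-KO mice and 6.07 to 6.72 in Nemo FL mice, and Cldn4 higher, at 8.90 to 9.96 in NEMO IEC-KO mice and 8.28 to 8.61 in Nemo FL mice.

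Of 32 oxidant and antioxidant enzymes, 16 were higher and 2 lower. Nos2, the inducible nitric oxide synthase, was at 8.75, 9.44, 8.37, 9.70 and 10.42 in NEMO IEC-KO mice, against 5.66, 5.35, 5.47, 5.45 and 4.93 in Nemo FL mice, and Duoxa2, the maturation factor of the epithelial oxidase DUOX2, was at 9.74 to 10.06 in NEMO IEC-KO mice and 6.93 to 8.11 in Nemo FL mice. The neuronal synthase Nos1 was lower (-0.79, SE 0.25), a call that was lost without mouse KO-30a, KO-31a or KO-108a or mouse FL-22a, FL-28a, FL-29a or FL-55a. Arg1, which competes with NOS2 for arginine, was higher too (2.24, SE 0.39). Prostaglandin synthase Ptgs2 was at 6.55, 6.81, 7.96, 8.93 and 10.11 in NEMO IEC-KO mice, against 6.24, 6.22, 6.11, 6.38 and 6.29 in Nemo FL mice (adjusted p = 0.0128), and without the Y-positive mice it was not called. The prostaglandin-degrading enzyme Hpgd was lower, at 9.72 to 10.41 in NEMO IEC-KO mice and 11.06 to 11.44 in Nemo FL mice. Of 25 genes of the unfolded protein response, 13 were higher and 1, the goblet cell sensor Ern2, was lower, and Asns, the asparagine synthetase that amino acid stress induces, was at 9.70 to 10.02 in NEMO IEC-KO mice and 8.05 to 8.72 in Nemo FL mice.

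Genes of matrix-degrading enzymes were among the large increases. Of 28 metalloproteinases and inhibitors, 15 were higher (53.6%) and 4 lower (14.3%, at the share over all genes). Mmp10 was at 6.49, 6.78, 7.83, 8.31 and 9.01 in NEMO IEC-KO mice, against 3.40, 3.95, 3.12, 3.21 and 2.81 in Nemo FL mice. Mmp13, a collagenase, was at 8.55, 8.38, 9.75, 9.82 and 10.48 in NEMO IEC-KO mice, against 5.92, 5.74, 5.73, 6.20 and 5.64 in Nemo FL mice. Mmp7, which in mouse is an epithelial enzyme, was at 5.83, 7.22, 6.99, 7.14 and 6.99 in NEMO IEC-KO mice, against 3.50, 3.58, 3.45, 3.72 and 3.26 in Nemo FL mice. The membrane-bound inhibitor Reck was lower (-1.24, SE 0.19). Collagens themselves were mostly not called, among them Col1a1 (0.25), Col1a2 (0.03) and Col3a1 (-0.25). In the list of collagens and stroma 5 of 34 were higher, near the share over all genes, with the crosslinking enzyme Lox at 6.49, 8.32, 8.02, 8.35 and 8.08 in NEMO IEC-KO mice and 5.55, 6.03, 6.13, 5.71 and 5.97 in Nemo FL mice, and 12 lower, with Postn (-1.50, SE 0.24) and Lum (-1.47, SE 0.24) leading. Of 24 endothelial genes, 4 were higher (16.7%) and 1 lower (4.17%), against 11.8% and 14.3% over all genes. Pecam1 (-0.18) and Cdh5 (0.19) were not called and the angiopoietin receptor Tek was lower (-0.99, SE 0.17), while the leukocyte-capturing Selp was at 6.32, 7.14, 7.60, 7.42 and 8.65 in NEMO IEC-KO mice, against 4.93, 4.55, 4.55, 4.91 and 4.61 in Nemo FL mice.

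Smooth muscle genes were lower nearly without exception. Of 23 measured, 22 were lower, with a median log2 change of -1.33, the most negative of the 59 lists. Mylk, the kinase that starts contraction, was at 8.63, 8.93, 8.63, 8.96 and 7.55 in NEMO IEC-KO mice, against 10.30, 10.56, 10.59, 10.86 and 10.88 in Nemo FL mice. The myosin heavy chain Myh11 was at 9.47, 10.01, 9.98, 9.82 and 8.14 in NEMO IEC-KO mice, against 11.12, 11.36, 11.48, 11.62 and 11.84 in Nemo FL mice. Mouse KO-108a was far below the other 4 in both, and without it the count of genes lower was also 22. The list mean was 8.26, 8.42, 8.57, 8.52 and 7.32 in NEMO IEC-KO mice, against 9.33, 9.53, 9.66, 9.78 and 9.71 in Nemo FL mice. How much muscle layer each piece of colon held was not recorded in the sources used here, and its part in the result was not tested. Neurons, glia and pacemaker cells of the same layer were lower in 9 of 28, or in 5 without mouse KO-30a or KO-108a or mouse FL-28a or FL-29a. The pacemaker channel Ano1 was at 10.16, 9.90, 9.52, 9.85 and 10.21 in NEMO IEC-KO mice, against 11.41, 11.50, 11.60, 11.58 and 11.13 in Nemo FL mice, and the neuronal genes Stmn2 (-1.29, SE 0.14) and Syt1 (-1.22, SE 0.21) were lower too, while the neuronal tubulin Tubb3 (0.01) and the glial genes S100b (0.01) and Gfap (-0.22) were not called. Fat genes were lower in 6 of 13, and Adipoq, the adipocyte hormone adiponectin, was at 4.74, 4.61, 3.75, 4.18 and 4.45 in NEMO IEC-KO mice, against 5.05, 5.04, 6.53, 7.63 and 5.35 in Nemo FL mice, where mice FL-28a and FL-29a stood apart from the other controls. The gluconeogenic Pck1, which is also an epithelial gene, was lower without such a split, at 6.63 to 7.16 in NEMO IEC-KO mice and 8.61 to 9.35 in Nemo FL mice.

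The output arm of the circadian clock was lower. Of 18 clock genes, 11 were lower and 1 higher, with a median log2 change of -1.20. Dbp, a transcription factor under direct clock control, was at 9.76, 9.82, 9.67, 7.78 and 7.12 in NEMO IEC-KO mice, against 11.41, 11.91, 11.95, 11.83 and 11.77 in Nemo FL mice. The repressor Nr1d1 (REV-ERB alpha) was at 9.81, 9.46, 9.40, 8.47 and 8.29 in NEMO IEC-KO mice, against 11.09, 11.24, 11.46, 11.01 and 10.34 in Nemo FL mice. Nfil3, which opposes Dbp at shared sites, was the gene called higher, at 6.86, 7.06, 7.45, 7.83 and 8.40 in NEMO IEC-KO mice and 5.64, 5.75, 5.68, 5.79 and 5.46 in Nemo FL mice. Mice KO-107a and KO-108a were lowest in Dbp and Nr1d1 and highest in Nfil3. The core activators Clock (-0.10) and Arntl (0.21) were not called. The hour at which each colon was collected is not given in the sources used here, and its part in the result was not tested.

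**Figure D4:**
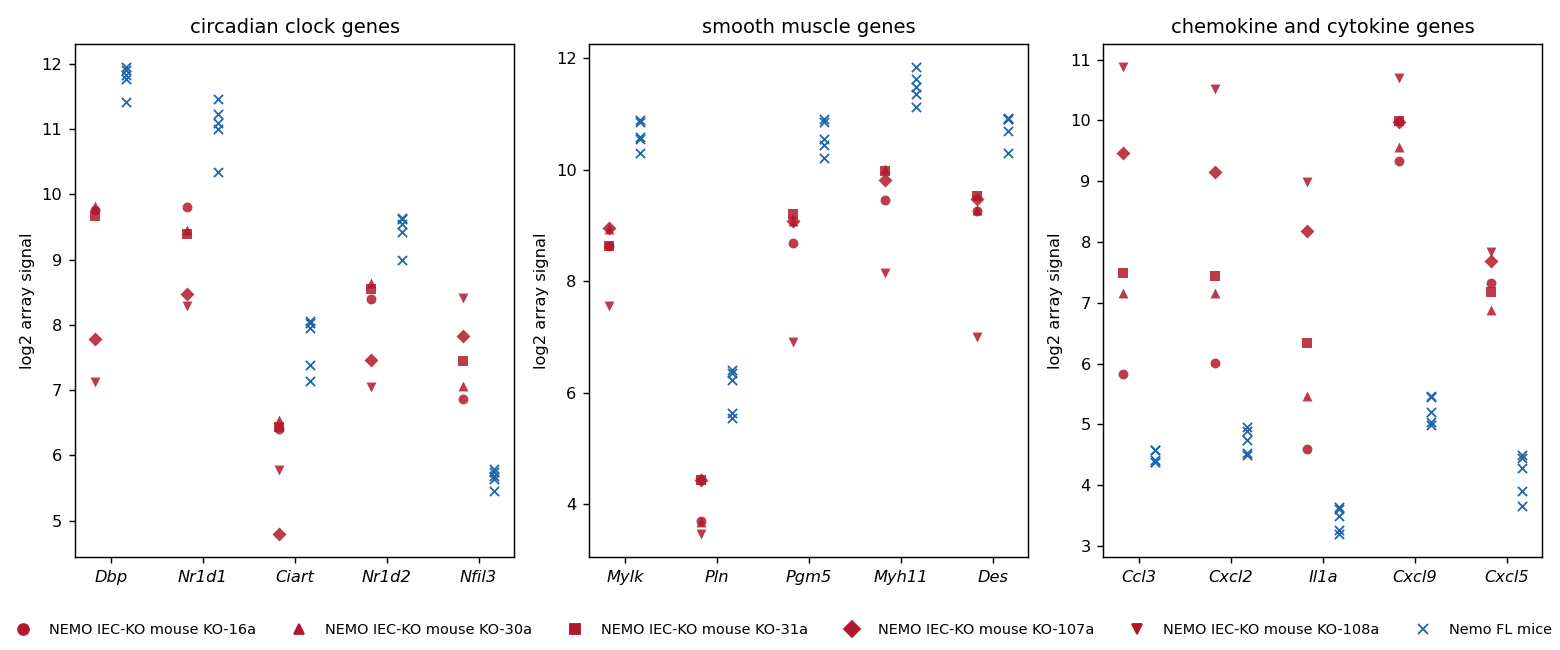
Log2 array signal (y axis) of 5 clock genes, 5 smooth muscle genes and 5 chemokine and cytokine genes, with NEMO IEC-KO mice as red symbols, 1 shape per mouse, left of Nemo FL mice as blue crosses. Mouse KO-108a is lowest in Dbp (7.12), Mylk (7.55) and Myh11 (8.14) and highest in Ccl3 (10.87), and groups do not overlap in any of the genes shown.

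The NEMO IEC-KO mice thus differed among themselves more than the controls. The SD was larger in the NEMO IEC-KO group for 12274 of 19527 genes (62.9%), with a median SD of 0.225 in NEMO IEC-KO mice and 0.187 in Nemo FL mice, and it exceeded 1 in 62 genes in NEMO IEC-KO mice and in 12 in Nemo FL mice. Genes differed in how far the mice lay apart. The mean over neutrophil genes, Il1a, Il1b, Ccl3 and Cxcl2 were lowest in mouse KO-16a and highest in mouse KO-108a and spread widely. Ido1, Ripk3, Lrg1, Clca4b and Mettl7b had SDs of only 0.24, 0.16, 0.19, 0.21 and 0.20 in NEMO IEC-KO mice, although Ido1 placed the 5 mice in the same order. The mean over interferon genes was 7.76, 7.94, 7.86, 7.98 and 8.21 in NEMO IEC-KO mice, against 6.87, 6.33, 6.55, 6.17 and 6.18 in Nemo FL mice. The mean over colonocyte transport genes was 8.54, 8.79, 8.66, 8.69 and 8.42 in NEMO IEC-KO mice, against 9.54, 9.60, 9.51, 9.52 and 9.31 in Nemo FL mice.

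**Figure D5:**
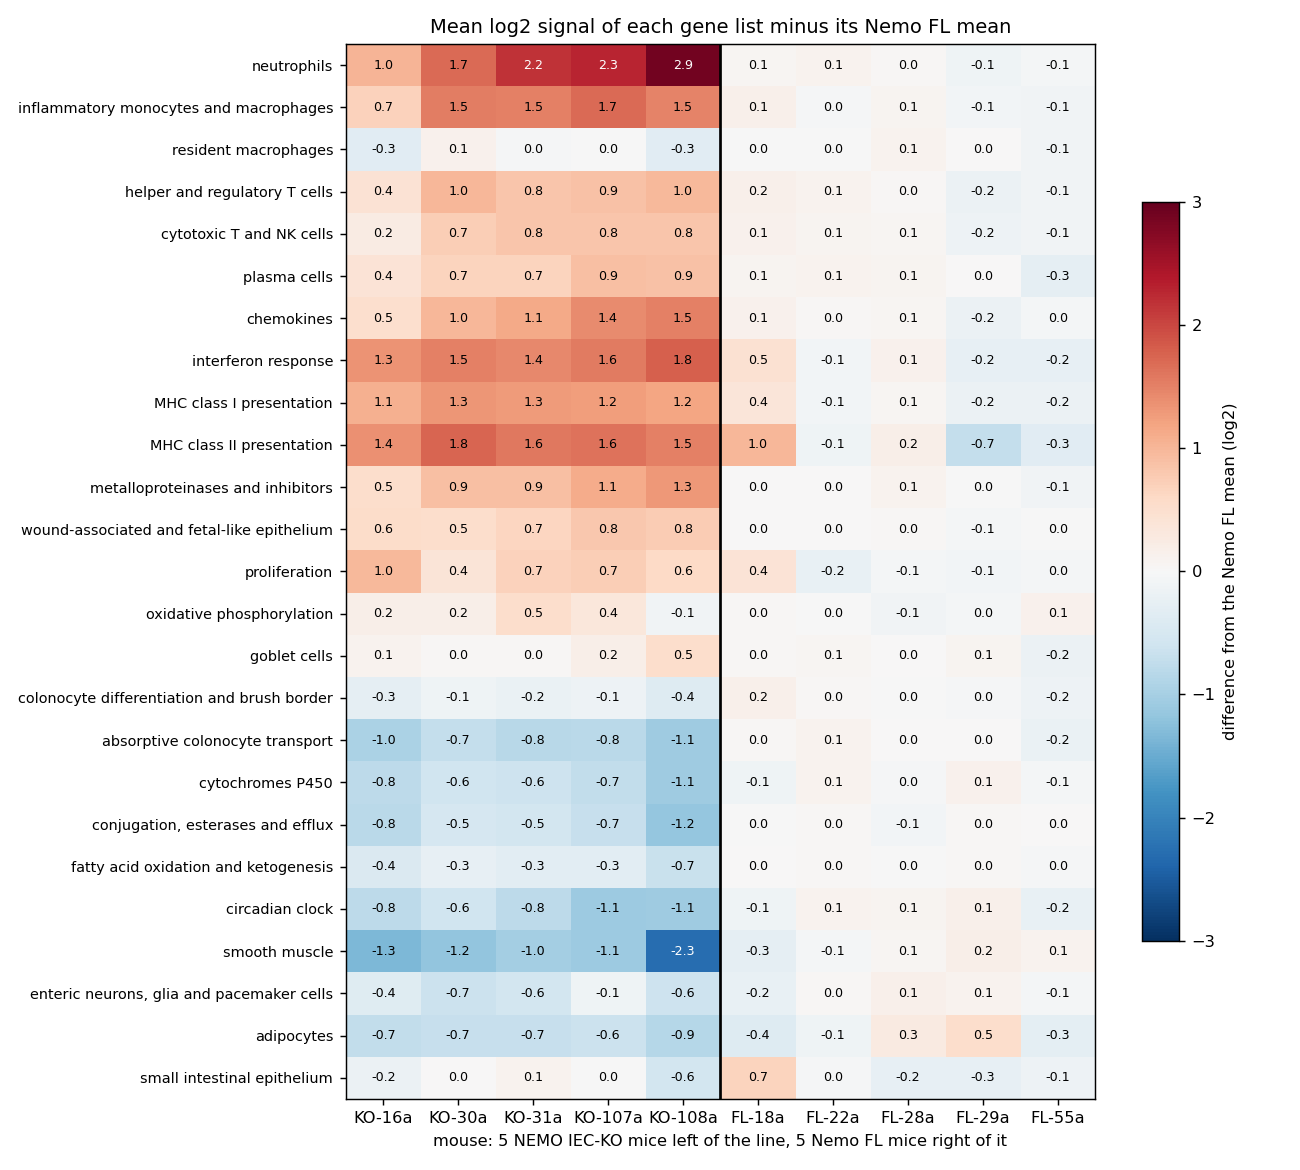
Mean log2 signal of 25 gene lists (rows) in each mouse (columns, NEMO IEC-KO left of the line and Nemo FL right), minus the mean of the 5 Nemo FL mice, in red where higher and blue where lower. Neutrophil genes range from 1.0 in mouse KO-16a to 2.9 in mouse KO-108a, and smooth muscle genes reach -2.3 in mouse KO-108a.

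The labels of mouse FL-55a conflict, and the comparison was run without it. Then 4752 genes were called, 2106 higher and 2646 lower, of which 4403 were among the 5106 above. Interferon genes higher numbered 37 of 45, class II genes 7 of 10, neutrophil genes 17 of 25, transport genes lower 30 of 47, smooth muscle genes lower 22 of 23 and clock genes lower 12 of 18. Placed with the NEMO IEC-KO mice as its genotype label reads, it left 1664 of 19527 genes, 658 higher and 1006 lower. The groups then overlapped in Ikbkg. Interferon genes higher then numbered 19 of 45, neutrophil genes 8 of 25, class II genes 0 of 10 and plasma cell genes 0 of 15 by limma (7 and 6 at an unadjusted p under 0.05), while 25 of 47 transport genes, 10 of 18 clock genes and 8 of 23 smooth muscle genes were lower. Of the 5106 genes called above, 1521 were also called in that arrangement. Many of the genes named above were not. They include Tnf, Ccl3, Cxcl2, Il1a, Il1f9, Il15, Ifng, Zbp1, Casp8, Tap1, H2-Ab1 and H2-DMb1. Cell type genes among them are Cd163, C1qa, C1qb, Fcer1g, Ly6c2, Cd3e, Jchain, Prdm1, Postn, Lum and Myh11. Others are Car1, Plk1, Rrm2, Serpina3n, Cldn4, Ptgs2 and Cpe. Among the 3 NEMO IEC-KO and 4 Nemo FL mice without Y chromosome transcripts, 3375 of 19527 genes were called, 1364 higher and 2011 lower. Fewer genes were thus called over the whole array, not only in the lists. With these fewer mice, the genes called higher numbered 21 of 43 for proliferation, 10 of 25 for complement, 10 of 53 for cytokines, 6 of 23 for sterol and fatty acid synthesis, 3 of 45 for the respiratory chain, 3 of 20 for mast cells and eosinophils and 3 of 21 for resident macrophages, and 4 of 44 cell death genes were lower. Of the genes named above, Adipoq, C1qb, Casp8, Cyp4f40, Ereg, Ifng, Il1r2, Nos1 and Ptgs2 were not called in these mice. Of the 2615 probe sets with no symbol here, 252 were higher (9.64%) and 270 lower (10.3%).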

How the data were processed

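Total RNA from whole colon tissue was hybridised to Clariom S mouse arrays, and the 10 arrays used here represent 5 NEMO IEC-KO and 5 Nemo FL littermates. The values, as deposited by the authors, are 1 signal per probe set and array, and they were read as log2 signals from their range of 1.69 to 13.59, because the log base is not stated. Affymetrix Expression Console and Transcriptome Analysis Console are named in the submitters' processing notes. The background correction, normalization and probe set summary are not given in the sources used here, and a scaling of the arrays to one another can shift all changes by a common amount. Array medians lay between 6.27 and 6.36. No column of the authors' own comparisons was used.

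Groups were taken from the array titles, in which mouse FL-55a is a wild type, although its genotype label is that of the NEMO IEC-KO group. The leading numbers in the titles run by group, and what they stand for is not stated. If they are an order of processing, that order and genotype cannot be told apart. Of 22142 probe sets, 19527 had 1 gene symbol in the platform annotation and 2615 had none, and 33 symbols had more than 1 probe set. limma 3.58.1 (lmFit and eBayes) in R 4.3.3 was fitted to all probe sets of the 10 arrays with Benjamini-Hochberg adjustment, and a gene was called at an adjusted p under 0.05. The script was tested on simulated data. Tables, promoter counts and figures were made with Python 3.11.15, pandas 2.3.3, numpy 2.4.6 and matplotlib 3.10.9. The number of mice limits the precision, and the p-values set the difference between groups against the spread between these mice.

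Genes were named by a rule: the 15 largest changes in each direction among called genes whose groups did not overlap, up to 4 called genes of each of 59 lists with the largest opposite change, and Tnf, Ccl5, Cxcl1, Il1b, Ikbkg and Ripk1. Further list members, among them all genes named as not called, were named after their values were seen. The comparison, the lists and the sequence patterns were chosen with earlier results of these data known. Of 1650 listed symbols, 1494 were measured. Alternatives covered the mice in the fit, the eBayes options, array weights, normalization, dim probe sets, sex, the group of mouse FL-55a, the call rule and each mouse left out.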

Additional observations from a re-analysis of the deposited data

Results flagged for a closer look

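In each group of 5 mice, the highest and the lowest value were set against the others by Dixon's criterion (a gap of over 0.71 of the range) for the 185 genes named and the means of the 59 lists. Of 488 groups looked at, 41 (8.4%) had such a mouse, where chance gives about 1 in 20. All values are log2 signals, and no cause was tested.

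Among NEMO IEC-KO mice, mouse KO-16a was low in 8 cases. It had 10.88 for Pla2g2a, 11.47 for Jchain, 7.14 for Bcl2a1b, 8.90 for Cldn4, 5.83 for Mmp7 and 6.49 for Lox, and its list means were 6.84 for inflammatory monocytes and macrophages, against 7.62 to 7.83 in the other 4, and 4.58 for cytotoxic T and NK cells, against 5.08 to 5.19. Mouse KO-108a was low in Mep1a (5.94), Tac1 (9.40), Postn (7.98), Mylk (7.55) and the mean of the smooth muscle genes (7.32, against 8.26 to 8.57), and high in Mx2 (6.13), Nfkbia (9.68, against 8.48 to 8.83) and the mean of the goblet cell genes (9.39, against 8.89 to 9.03). Mouse KO-31a was low in Ripk3 (9.24) and Clock (10.21), and mouse KO-30a was high in Mertk (7.29).

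Among Nemo FL mice, mouse FL-55a accounted for 12 of the 41. It was low in Zc3h12a (6.73), Bcl2l1 (7.59), Hnf4a (10.09), Scnn1a (9.29) and Vil1 (10.00), and in the means of plasma cell genes (6.60), goblet cell genes (8.68), junction genes (8.42), stromal niche signals (6.50) and solute carriers of amino acids and nutrients (7.28). It was high in Birc2 (7.90) and in the mean of the Y chromosome genes (8.53, against 2.89 to 3.30). Mouse FL-18a was high in Gzma (4.59) and Rrm2 (8.01) and in the means of cell death genes (7.74), proliferation genes (7.80, against 7.18 to 7.35) and small intestinal epithelium (6.74, against 5.82 to 6.02), and low in Syt1 (7.16) and Nos1 (5.51). Single low values were those of mouse FL-22a in Ccr1 (4.69), mouse FL-28a in Lgr4 (11.31) and mouse FL-29a in Ly6d (6.28).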

How the results depend on the processing

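The genes named as called kept their direction under every alternative run, but many were no longer called with mouse FL-55a among the NEMO IEC-KO mice. The count of 5106 genes fell to 1664 with mouse FL-55a placed among the NEMO IEC-KO mice (658 higher, 1006 lower). In the mice without Y chromosome transcripts, an alternative chosen after seeing the data, 3375 were called (1364 higher, 2011 lower). Stricter rules gave 3000 genes at an adjusted p under 0.01 (1335 higher, 1665 lower), 1040 at an adjusted p under 0.05 with a log2 change over 1 either way (521 higher, 519 lower), and 2870 at a fold of about 1.5 with an unadjusted limma p under 0.05 (1318 higher, 1552 lower). Leaving out single mice gave 3979 to 5289 genes, 1771 to 2433 higher and 2208 to 2856 lower, with the lowest count without mouse FL-29a and the highest without mouse KO-30a.

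The other settings gave 4181 to 5543 genes, the lowest with probe sets above the median signal alone. Counts over lists stayed within 1.5 times in 2472 comparisons with an alternative and moved further in 354, and list medians moved by more than their spread in 55 of theirs and stayed within it in 1358. With each array centred on its median, 50.5% of the calls were higher, against 45.3%. Ptgs2 was not called with eBayes trend and robust options, nor Cyp51 with all 3 groups in 1 fit, and Ddx58 was called with the Y chromosome term. Krt20 was called higher with trend and robust options, with array weights, with median centring and with either filter on dim probe sets. No paired analysis was possible because the sample labels do not say which mice share a litter, and litter was not in the model. The values carry no detection call. Y chromosome genes in mice without Y transcripts averaged 2.86 to 3.30, and changes of genes near that level in 1 group may be understated.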
